A study of Mus musculus with 2 samples.

Results

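The miRNA genes named Mir297, Mir466, Mir467 and Mir669 make up repeat-rich families, most of whose copies lie in tandem in an intron of Sfmbt2. They were taken by gene symbol from the GENCODE M21 annotation: 81 of the 2202 miRNA genes counted carried such a symbol. By family there were 30 Mir669 genes, 28 Mir466 genes, 17 Mir467 genes and 6 Mir297 genes. Their values were read in microRNA-seq of cortical tissue (left cerebral cortex) from B6CASTF1/J males at 25 days of age, the F1 hybrid of C57BL/6J and CAST/EiJ. The study has 1 group of 2 libraries, labelled biological replicates 1 and 2, from separately numbered males whose donor entry is shared. No treatment is named in the labels and the direction of the cross is not given there. With 1 library per mouse, a difference between the mice cannot be told apart from a difference between the libraries.

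MicroRNAs are cut from hairpin precursors, and the seed near the 5′ end of the mature strand pairs with target mRNAs to repress them. Sfmbt2 encodes a Polycomb-group protein and is imprinted, with expression from the paternal allele in extraembryonic tissue. The miRNA cluster in its intron is known from mouse and rat and is best known from placenta and embryonic stem cells, where loss of the cluster impairs placental growth. The counts used here do not separate alleles.

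Mature sequences were found for 8 of the 81 genes in the RefSeq table for GRCm38.p6, the assembly whose chromosomes are those of mm10. They belong to copies that lie outside Sfmbt2 and are shown for their alternating repeat letters. Each is written 5′ to 3′ with the seed, bases 2 to 8, in capitals.
mmu-miR-466q: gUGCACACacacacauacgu
mmu-miR-466i-3p: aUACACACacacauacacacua
mmu-miR-466j: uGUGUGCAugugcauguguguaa
mmu-miR-466k: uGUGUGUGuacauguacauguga
mmu-miR-467f: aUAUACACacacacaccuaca
mmu-miR-467g: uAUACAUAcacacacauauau
mmu-miR-467h: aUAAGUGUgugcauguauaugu
mmu-miR-669n: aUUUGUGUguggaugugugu
The 8 seeds all differed from each other, and 7 of them belonged to no other mature sequence in the table. A run of at least 8 bases that alternates between U and G or between A and C was present in 6 of the 8. In the whole table, 13 of 1679 mature sequences (0.774%) held such a run, so such runs were commoner in these 8 than in the table as a whole. Over annotated hairpins, which cover all members, a run of at least 12 bases alternating in this way was present in 16 of the 81 members (19.8%) and in 133 of the 2121 other miRNA genes (6.27%). The longest such run had a median of 13 bases in the 10 hairpins outside Sfmbt2 and of 9 over all 81. The sequences shown therefore do not stand for the copies in the intron. Among the 8 mature sequences the longest runs, 12 bases each, were in miR-466q and miR-467f.

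The libraries held 2388379 counts (replicate 1) and 4447390 counts (replicate 2) on the genes' own strand, a ratio of 1.86. Levels are given as counts per 1000000 of these (CPM). Reads that matched several places in the genome made up 48.6% and 52.8% of mapped reads and were assigned to no gene. A count of 3, the floor used here, stood at 1.26 CPM (replicate 1) and 0.675 CPM (replicate 2). Such floors, like all intervals given, cover only the counting error of reads. No molecular identifiers were there to tell independent molecules from copies, so the error in counting molecules may be larger. The tissue label was checked on marker miRNAs. All 10 listed neuronal genes had counts and summed to 87809 and 75132 CPM, led by the activity-regulated Mir132, while the hepatocyte miRNA Mir122 stood at 54.0 and 57.6 CPM. Mir132 alone stood at 60392 and 37793 CPM. The listed Mir124a genes did not reach 10 counts in each library, so the neuronal sum rests on the other listed genes.

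The 71 genes on chromosome 2 all lay on the strand of Sfmbt2 within a single intron, the intron numbered 10 in the transcript Sfmbt2-201 (chr2:10461473-10523944, mm10). They spanned 51.6 kb, from Mir466m to Mir669h, and began 96.2 kb from the start of the host gene. The intron held 29 Mir669, 23 Mir466, 14 Mir467 and 5 Mir297 genes. Neighbouring members started a median of 298.5 bases apart. In the middle of the cluster the genes recur as near-identical units: the 10 copies of Mir467a were spaced 2413 to 4880 bases apart, with a median of 2462 bases. The other 10 members were scattered over 7 chromosomes. Of these, 6 lay in introns of other genes, 5 of them on the strand opposite to the host. Mir466q was the exception, in an intron of the kinase gene Tnik and on its strand (chr3:28419943-28420018).

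Most members had no assigned read in either library. A count in either library was found for 13 of the 81 members, against 34.6% of all 2202 miRNA genes. At least 10 counts in each library, called measured below, were found for 8 members, against 17.8% of all genes. All 8 lay in the Sfmbt2 intron, 5 of them Mir669 genes and 3 of them Mir467 genes. No Mir466 or Mir297 gene reached that level. The 28 Mir466 genes together had 2 counts in replicate 1 and 4 in replicate 2, and the 6 Mir297 genes had 0 and 2. Outside Sfmbt2 only Mir466q had any count, 0 in replicate 1 and 2 in replicate 2, which is under the floor of 3 counts.

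Counts lay at both ends of the cluster and were absent from its middle. The 13 members up to Mir467c held 229 counts in replicate 1 and 338 in replicate 2, with a count in 6 genes. The 20 members from Mir467e onward held 3613 and 6967 counts, also with a count in 6 genes, or 94.0% and 95.3% of all member counts. Between Mir467c and Mir467e lay 31.7 kb with 38 members, and none of the 38 had a count in either library. The stretch was bounded by the nearest genes with a count on either side, so its lack of counts follows from that choice. All 10 Mir467a copies were in that stretch. For the 38 together, 0 counts allow a summed level of up to 1.26 and 0.675 CPM in the respective libraries among assigned reads.

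**Figure D1:**
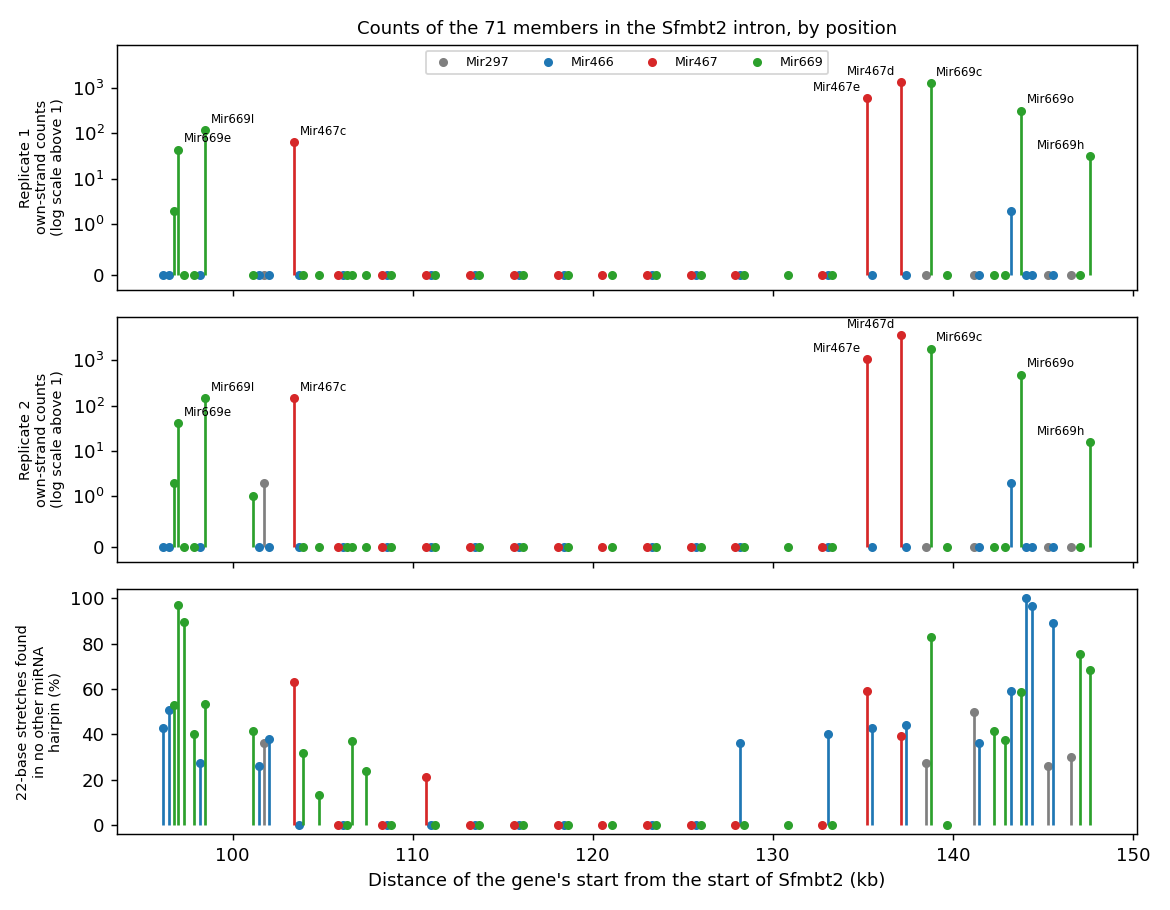
Own-strand counts of the 71 members in the Sfmbt2 intron (upper panels, replicates 1 and 2, logarithmic above 1 and linear from 0 to 1) and the percent of each hairpin's 22-base stretches found in no other annotated miRNA hairpin (lower panel), against distance from the start of Sfmbt2 in kb. Each point is a gene coloured by family, and the 38 members between Mir467c and Mir467e stand at 0 counts.

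The middle of the cluster was also where the hairpins were least distinct from each other. For every miRNA gene, each 22-base stretch of its annotated hairpin was searched for in all other annotated miRNA hairpins on both strands. The stretches cover the whole hairpin, while reads come from its mature strands. The share of own stretches is thus only an indirect measure of how far a gene's reads could be assigned. No stretch of their own was left for 32 of the 81 members (39.5%), compared with 265 of the 2121 other miRNA genes (12.5%). Of these 32 members 31 lay between Mir467c and Mir467e, and the remaining one was Mir669a-2 in the distal part. The 81 members had 63 distinct hairpin sequences. The commonest sequence was carried by 9 genes, all of them Mir669a copies, and another was carried by 6 of the 10 Mir467a copies.

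None of the 32 members without a stretch of their own had a count. In the rest of the annotation, 3 of 265 such genes (1.13%) had one. Above 0% and up to 50%, 3 of 26 members (11.5%) and 10 of 305 other genes (3.28%) had a count. Of the 21 members with more than 50% but under 100% of stretches of their own, 10 had a count (47.6%), and 85 of 383 other genes in that range did (22.2%). At 100% the order was the other way, with 0 of 2 members and 650 of 1168 other genes (55.7%). Measured members ranged from 39.1% (Mir467d) to 96.9% (Mir669e). A distinct hairpin did not always go with a count. Over 80% of the stretches were their own in 9 members with no count, 4 of them in the Sfmbt2 intron: Mir466g (100%), Mir466h (96.7%), Mir669b (89.5%) and Mir466l (89.0%). Copies outside annotated miRNA genes were not searched. The part of unassigned reads in these zeros was not tested, and an empty member is therefore not shown to be silent.

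**Figure D2:**
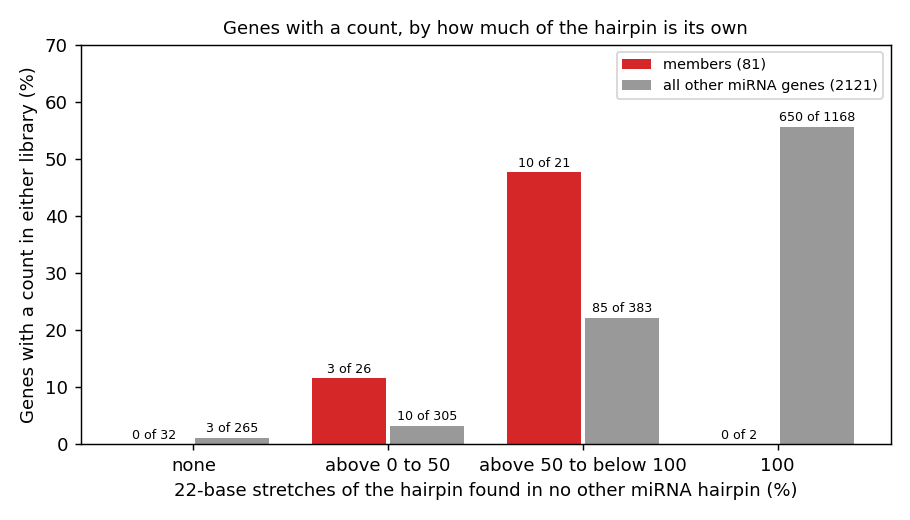
Percent of genes with a count in either library (vertical axis), for members (81) and all other miRNA genes (2121), grouped by the percent of the hairpin's 22-base stretches found in no other annotated miRNA hairpin. Numbers above the bars give genes with a count of genes in the bin, from 0 of 32 members with no stretch of their own to 10 of 21 in the range above 50%.

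The 8 measured members held 99.9% of the member counts in each library. Since a read covers a mature miRNA and not the hairpin, levels were not divided by hairpin length. Lower level in bulk tissue can mean fewer expressing cells, less RNA per cell or more reads left unassigned, which cannot be told apart. The median measured miRNA gene stood at 109 and 129 CPM in the respective libraries, and 4 and 3 of the 8 members were above it.

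Mir467d (ENSMUSG00000077021.2, chr2:10507630-10507714) was the most abundant member. It had 1364 counts in replicate 1 and 3621 in replicate 2, or 571 and 814 CPM, a mean of 693 ± 172 CPM (SD, n = 2). That placed it at rank 120 and rank 115 of all genes, higher in replicate 2. Its part of the member counts was 35.5% in replicate 1, with an exact 95% interval (Clopper-Pearson) of 34.0 to 37.0%. In replicate 2 it was 49.6%, with an interval of 48.4 to 50.7%. Of its 85 bases, a run of 60 was shared with 9 copies of Mir467a, and a read that lies within that run matches several genes.

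Mir467e (ENSMUSG00000076948.2, chr2:10505721-10505807) had 603 and 1051 counts, or 252 and 236 CPM (mean 244 ± 11.4, SD, n = 2). As a ratio, its level differed least between the libraries among the measured members. Mir467c (ENSMUSG00000077049.2, chr2:10473931-10474027), at the other end of the cluster, had 63 and 146 counts, or 26.4 and 32.8 CPM. Mir467d stood at 21.7 times the level of Mir467c in replicate 1 and 24.8 times in replicate 2. Mir467c and Mir467e were each other's closest relatives, sharing a run of 48 bases.

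Among the Mir669 genes, Mir669c (ENSMUSG00000076118.1, chr2:10509296-10509404) led. It had 1294 counts in replicate 1 and 1796 in replicate 2, or 542 and 404 CPM (mean 473 ± 97.6, SD, n = 2). It was higher in replicate 1 than in replicate 2. Mir467d stood at 1.05 times the level of Mir669c in replicate 1 and 2.02 times in replicate 2. Mir669o (ENSMUSG00000077086.1, chr2:10514300-10514395) had 318 and 481 counts, or 133 and 108 CPM. Its longest run shared with another gene, 38 bases, matched 11 of the 12 Mir669a copies among others.

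Mir669l (ENSMUSG00000076959.1, chr2:10468971-10469068) had 120 and 146 counts, or 50.2 and 32.8 CPM. Mir669e (ENSMUSG00000080653.1, chr2:10467495-10467613) had 44 and 41 counts, or 18.4 and 9.22 CPM. Mir669h (ENSMUSG00000080594.1, chr2:10518155-10518279), the last member of the cluster, had 32 and 16 counts, or 13.4 and 3.60 CPM. All 3 stood lower in replicate 2. The order by mean level ran from Mir467d through Mir669c, Mir467e, Mir669o, Mir669l, Mir467c and Mir669e to Mir669h, over an 81.5-fold range. Library values did not overlap between neighbours in that order, except Mir669l with Mir467c, which had 146 counts each in replicate 2, and Mir669e with Mir669h.

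**Figure D3:**
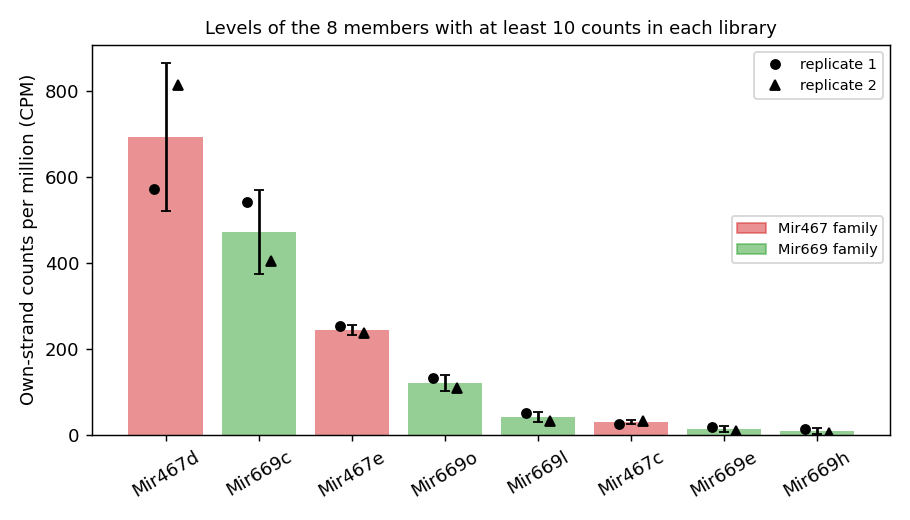
Own-strand counts per 1000000 (CPM, linear axis from 0) of the 8 measured members. Bars give the mean and error bars the SD of n = 2 libraries, circles replicate 1 and triangles replicate 2; Mir467d (571 and 814 CPM) and Mir669c (542 and 404 CPM) lead, and their libraries are ordered oppositely.

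The remaining 5 members with any count were at or under 2 counts per library. Mir669f and Mir466n had 2 counts in each library. Mir297a-2 and Mir466q had 0 in replicate 1 and 2 in replicate 2, and Mir669d-2 had 0 and 1. None of these values exceeded the floor of 3 counts. On the opposite strand the 81 genes together had 1 count in replicate 1, in Mir297a-4, and 0 in replicate 2.

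Summed over all 81 genes, the families held 3842 counts in replicate 1 and 7307 in replicate 2. The Mir467 family was a larger part of the sum in replicate 2 and the Mir669 family a smaller part. Mir467 genes made up 52.8% of member counts in replicate 1 (exact interval 51.2 to 54.4%), against 65.9% in replicate 2 (64.8 to 67.0%). Mir669 genes made up 47.1% (45.5 to 48.7%) and 34.0% (32.9 to 35.1%). In level, the Mir467 sum was 850 and 1083 CPM, a ratio of replicate 2 over replicate 1 of 1.27 (95% exact binomial interval 1.21 to 1.34). The Mir669 sum was 758 and 558 CPM, a ratio of 0.737 (0.693 to 0.783). The sum without Mir467d fell from 1038 to 829 CPM, a ratio of 0.799 (0.759 to 0.841). These intervals cover counting error and not the spread between mice. Marker miRNAs of other cells moved between the same libraries. The endothelial and mural list summed to 16755 and 28010 CPM in replicates 1 and 2, with endothelial Mir126a at 10782 and 22504 CPM. Its other genes, mural Mir143 and Mir145a, were lower in replicate 2. Their log2 ratios (replicate 2 over replicate 1) were −0.11 and −0.22. The oligodendrocyte list summed to 2726 and 3556 CPM. Its Mir219a-2 was higher in replicate 2 (log2 ratio 0.72). Mir338 (−0.03) and Mir219a-1 (−0.75) did not pass the binomial comparison given below. The neuronal sum was lower in replicate 2, as given above, with Mir132 at 60392 and 37793 CPM and Mir138-2 slightly lower (−0.08). Mir128-1, Mir128-2, Mir137, Mir138-1 and Mir153 were higher, at log2 ratios from 0.11 to 1.51. Genes within each of these lists thus did not all move the same way. Every gene of these lists that was in the files had a count, and their part in the shifts of the Mir467 and Mir669 sums was not tested.

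Gene by gene, the libraries were compared by a two-sided exact binomial test conditional on each gene's summed count, with Benjamini-Hochberg adjustment over all 392 measured genes. The test found 6 of the 8 measured members different, against 56.9% of all measured genes, so a difference of this kind was common in the whole profile. Lower in replicate 2 were 5 of 8, against 22.7% of all measured genes, and higher was 1 of 8, against 34.2%. All 5 measured Mir669 genes were lower: log2 ratios (replicate 2 over replicate 1) were −0.42 for Mir669c, −0.30 for Mir669o, −0.61 for Mir669l, −0.999 for Mir669e and −1.90 for Mir669h. Of the 3 Mir467 genes only Mir467d passed, at a log2 ratio of 0.51 (counting SE 0.046, adjusted p = 1.45e-29 in the exact test). Mir467c had a log2 ratio of 0.32 (95% exact interval −0.12 to 0.77) and Mir467e of −0.10 (−0.24 to 0.05), and neither passed.

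The lowest ratio belonged to Mir669h, which also had the fewest counts of the 8 (counting SE 0.44, adjusted p = 2.68e-05 in the exact test). The median log2 ratio was −0.36 over the 8 members and 0.06 over all 392 measured genes. With the spread between the libraries allowed for (biological coefficient of variation 0.311, edgeR), edgeR's exact test called 0 members, against 0.765% of all measured genes (3 of 392), so it called few genes of any kind. Mir669h alone had an unadjusted p under 0.05 there, 0.0188, with an adjusted p of 0.615. That test has 1 library on each side and takes its dispersion from the same pair.

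**Figure D4:**
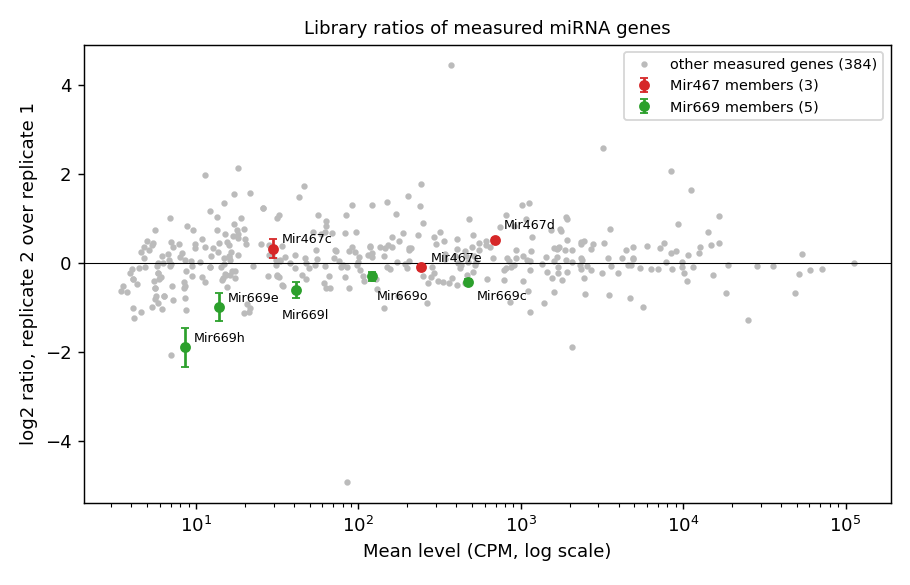
Log2 ratio of replicate 2 over replicate 1 against mean level (CPM, log scale) for the 392 measured miRNA genes. Grey points are the 384 other genes, coloured points the 8 members with their counting SE; the 5 Mir669 members lie below 0, from −0.30 to −1.90, and the Mir467 members between −0.10 and 0.51.

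The families were set beside other tandem miRNA clusters, with counts only and no test of the difference. In the imprinted Dlk1-Dio3 cluster from Mir379 to Mir410, 37 of 43 genes had a count and 34 were measured, and no gene lacked a stretch of its own. The cluster from Mir290a to Mir295, characteristic of pluripotent cells, had a count in 3 of 9 genes and a sum of 2 counts in each library. The X-linked cluster from Mir743 to Mir465 had a count in 2 of 19 genes and sums of 3 and 5 counts. The Sfmbt2 intron thus had a smaller share of genes with a count (12 of 71) than the Dlk1-Dio3 cluster, and 45.1% of its members had no stretch of their own. Its summed level of 1609 and 1643 CPM was above the 0.837 and 0.450 CPM of the Mir290a to Mir295 cluster and below the 76266 and 76166 CPM of the Dlk1-Dio3 cluster. These sums hold assigned reads only. The median gene had 25.9% of stretches its own in the Sfmbt2 intron, against 100% in the Dlk1-Dio3 cluster. The sum of the intron may therefore be too low beside that cluster, and by how much was not tested.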

How the data were processed

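MicroRNA-seq libraries of total RNA (size range below 30, per the labels) were analysed for 2 mice of 1 group. The deposited values are raw counts, which the authors made with mm10 and GENCODE M21, per the readme files; aligner and counter are not given in the sources used. Files lack a header line. From the values, their 3 count columns were read as both strands together, own strand and opposite strand, and own-strand counts were used. The 4 leading entries without a gene entered no total; reads in no feature were 7.36% and 6.91% of mapped reads in replicates 1 and 2. The reference is that of C57BL/6J, and the effect of CAST/EiJ alleles on alignment was not tested.

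All 2202 identifiers matched the annotation. Members and lists were chosen with earlier results of these data known. Every member with a count is named. Mir466g, Mir466h, Mir669b, Mir466l, Mir669a-2, Mir297a-4 and the Mir467a and Mir669a copies fall outside that rule and were chosen after seeing their values. Also outside it are Mir466m, named as the start of the cluster, and the members without a count whose mature sequences are shown. Measured genes, with 10 or more counts per library (4.19 and 2.25 CPM), entered an exact binomial test conditional on the summed count and the library totals, adjusted p under 0.05. edgeR's quasi-likelihood test has no contrast with 1 group. The binomial test was checked on simulated counts with known fold changes and counting error only. That check cannot show how the test fares with the further spread between these libraries. Hairpins were taken from the GENCODE transcripts. Alternatives were count minimums of 1 and 100, TMM (edgeR 4.0.16) and DESeq2 1.42.0 scaling, both strands, other totals, leaving out each replicate or Mir467d, and, added after the data were seen, stretches of 18 and 25 bases. R 4.3.3, Python 3.11.15, NumPy 2.4.6, SciPy 1.17.1, pandas 2.3.3 and matplotlib 3.10.9 were used.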

Additional observations from a re-analysis of the deposited data

Results flagged for a closer look

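Another 48 annotated miRNA genes lie within Sfmbt2 on its strand under other names and belong to none of the 4 families by symbol. They had 0 counts in replicate 1 and 4 in replicate 2, and the latter lies above the floor of 3 counts in that library. In level it was 0.899 CPM, below the 1.26 CPM that 0 counts allow in replicate 1, so the libraries are not shown to differ. The 4 counts were 2 in Gm22072, 1 in Gm22239 and 1 in Gm26398, and 22 of the 48 genes had no 22-base stretch of their own.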

How the results depend on the processing

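The share of the families in the counts was 0.163% and lay between 0.161% and 0.164% with either library left out, but was 0.176% with both strands together and 0.0513% of all reads. A count was found for 13 members, for 10 to 13 with a library left out, and for 8 when at least 10 counts were required in each library. The log2 ratio of the summed counts was 0.0305 (95% exact binomial interval −0.0261 to 0.0872), and changed sign to −0.0276 with TMM scaling, −0.0361 with DESeq2 scaling and −0.32 without Mir467d. The exact binomial test called 6 of 8 members, also with TMM or DESeq2 scaling or both strands, where it called 56.1% of all genes tested. It called 6 of 13 with a minimum of 1 count (30.5% of all genes) and 4 of 5 with a minimum of 100 (80.2%), where Mir669e and Mir669h were too low to be tested. edgeR's exact test called 0 members and 3 of all 392 genes. The share from the Sfmbt2 intron was 99.97% to 100% under each alternative tried. Members with no stretch of their own numbered 32 at 18 bases and 31 at 25. Single members gave 63 alternative levels and ratios. Levels were judged against the SD of the 2 libraries. Leaving out a library cannot exceed that SD, so those alternatives could not move. With both strands together 1 level moved beyond it, that of Mir467e (265 CPM). Its counts were the same, 603 and 1051. The levels of the other measured members rose as well, because the library totals were smaller. Ratios were judged by direction and side of the binomial threshold, and no measured member changed either with TMM or DESeq2 scaling or both strands. No paired analysis was possible because there is 1 group. The number of libraries and the unassigned reads limit these results.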
